A study of Homo sapiens with 24 samples.

Results

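The genes described here are 7 protein arginine methyltransferases (PRMT1, PRMT2, PRMT3, CARM1, PRMT5, PRMT6 and PRMT7) and 2 proteins that work with PRMT5 (WDR77 and CLNS1A). They were chosen by name: the rows of the gene count matrix whose Ensembl identifier, without its version, maps to these 9 symbols. They are 9 of 60668 rows, and all 9 were among the 22158 genes with enough counts to be tested.

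The RNA came from MCF-10A, an established, immortalised line of human mammary epithelial cells, and from MCF-10A MYC-ER, the same line with an added MYC transcription factor joined to the part of the oestrogen receptor that binds hormone. 4-hydroxytamoxifen (4-OHT) binds that part and lets the fusion act in the nucleus. Both lines were grown in 3D on growth-factor-reduced Matrigel, a basement membrane gel, and given 1 µM 4-OHT from day 3 onward for 0, 8, 24 or 48 h, with every culture harvested on day 5. The 8 groups are thus parental and MYC-ER cells at each of the 4 times, with 3 replicates each and 24 libraries in all; the 0 h MYC-ER cells carry the fusion and had no 4-OHT. The promoter that drives the fusion, and whether the line is 1 clone, are not given in the sources used here. Replicates were cultures seeded in triplicate, and nothing says that they came from separate passages, so the p-values measure only the spread between such cultures.

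Protein arginine methyltransferases move a methyl group from S-adenosylmethionine onto arginine side chains of histones, RNA-binding proteins and ribosomal proteins. Type I enzymes (PRMT1, PRMT2, PRMT3, CARM1 and PRMT6) make asymmetric dimethylarginine, PRMT5 makes most symmetric dimethylarginine, and PRMT7 makes monomethylarginine. PRMT5 works in a complex with WDR77, and the adaptor CLNS1A brings it the Sm proteins of the spliceosome; in MYC-driven mouse lymphoma, MYC is known to raise PRMT5 and the Sm assembly genes.

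Library totals ran from 136860029 to 182438505 counts. Replicates differed by more than sampling noise in every pair: a chi-square of the counts over genes, divided by its degrees of freedom, ran from 8.93 to 285 over the 24 pairs of replicates. All 8 mammary epithelial markers had counts. Levels are given in CPM (counts as a share of the scaled total of each library). These markers summed to 9737 to 16315 CPM in MYC-ER libraries and to 17861 to 28907 CPM in parental libraries. The 4 endothelial markers summed to at most 2.32 CPM, with 1 of 4 at 0 in every library. The 5 immune markers summed to 4.20 to 23.6 CPM, with 2 of 5 at 0. The 7 fibroblast markers, which include collagen genes that epithelial cells can also transcribe, summed to 369.6 to 377 CPM in MYC-ER cells at 0 h and to 77.3 to 133 CPM in the other 7 groups; 5 of the 7 averaged under 1 CPM. MYC itself, counted over the native gene and, where reads match it, the fusion, stood at 387, 795, 321 and 248 CPM in MYC-ER cells at 0, 8, 24 and 48 h, and at 532, 463, 506 and 525 CPM in parental cells (group means, n = 3).

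The promoters of 4 members are printed here because these genes carry the 4 main patterns in the data: WDR77 with the largest rise, PRMT3 with a rise followed by a fall below the start, PRMT5 with its highest level at 24 h, and PRMT2 with a fall. Each is the 250 bases before to 50 bases after the transcription start, on the gene's strand, from RefSeq (GRCh38.p14). Capitals mark CACGTG, the E-box hexamer that MYC and its partner MAX are known to bind; this hexamer reads the same on both strands.
WDR77: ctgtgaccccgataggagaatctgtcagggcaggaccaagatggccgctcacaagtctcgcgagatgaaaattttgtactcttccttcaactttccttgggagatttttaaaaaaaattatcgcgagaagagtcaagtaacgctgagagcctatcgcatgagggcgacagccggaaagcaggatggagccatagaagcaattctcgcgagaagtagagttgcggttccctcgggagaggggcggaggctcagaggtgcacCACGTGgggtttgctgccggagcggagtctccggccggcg
PRMT3: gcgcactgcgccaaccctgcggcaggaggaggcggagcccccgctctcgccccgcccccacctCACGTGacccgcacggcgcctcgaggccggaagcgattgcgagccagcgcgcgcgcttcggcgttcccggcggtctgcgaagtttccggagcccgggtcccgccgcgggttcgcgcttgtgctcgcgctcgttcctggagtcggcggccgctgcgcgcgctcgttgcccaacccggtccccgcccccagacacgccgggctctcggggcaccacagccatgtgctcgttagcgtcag
PRMT5: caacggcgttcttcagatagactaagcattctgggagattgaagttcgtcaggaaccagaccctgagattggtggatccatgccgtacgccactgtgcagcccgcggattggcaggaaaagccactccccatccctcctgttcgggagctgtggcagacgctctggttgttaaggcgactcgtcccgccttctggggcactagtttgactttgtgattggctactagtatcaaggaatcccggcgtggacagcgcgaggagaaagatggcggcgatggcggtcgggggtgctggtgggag
PRMT2: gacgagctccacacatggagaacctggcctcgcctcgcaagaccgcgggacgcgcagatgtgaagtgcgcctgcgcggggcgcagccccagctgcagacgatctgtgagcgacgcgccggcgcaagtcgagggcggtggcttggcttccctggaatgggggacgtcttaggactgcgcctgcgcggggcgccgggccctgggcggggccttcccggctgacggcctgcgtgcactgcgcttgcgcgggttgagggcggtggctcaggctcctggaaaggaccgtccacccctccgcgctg
These windows lie at chr1:111449207-111449506 (minus strand, WDR77), chr11:20387466-20387765 (plus strand, PRMT3), chr14:22929327-22929626 (minus strand, PRMT5) and chr21:46635424-46635723 (plus strand, PRMT2). CACGTG was found in the windows of 2 of the 9 members. In PRMT3 it began 187 bases before the start, and in WDR77 it began at base 11 after the start. The hexamer was in 8.88% of the 18900 promoters of tested genes and in 7.26% of all 35116 promoters of this length. The related hexamer CACGCG, searched on both strands (as CACGCG or CGCGTG), was in CARM1 and PRMT7 and in 16.1% of the promoters of tested genes. That share is per promoter, whereas a member was counted if any of its windows held a site. CARM1 has another window without the hexamer, and PRMT7 has overlapping windows that hold the same site. A site of one hexamer is never a site of the other, although neighbouring sites could share bases. A match is a description of the letters in these windows, and no binding was measured.

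In MYC-ER cells, 8 h of 4-OHT came with higher RNA of 8 of the 9 genes and lower RNA of the remaining one, PRMT2. WDR77 rose most, by 1.68 on the log2 scale, followed by PRMT5, PRMT3, PRMT6, PRMT1, CLNS1A, CARM1 and, with the smallest rise of 0.28, PRMT7. At 24 h the same 8 were above 0 h and PRMT2 below it. By 48 h only PRMT5 and CLNS1A were called higher, PRMT2 and PRMT3 were called lower, and the other 5 were not called. Calls are from edgeR's quasi-likelihood test over all 24 libraries with Benjamini-Hochberg adjustment over the 22158 genes, at a threshold of 0.05. All 9 genes were called at 8 h, where 67.6% of all genes tested were called; 32.2% were called higher and 35.4% lower. At 24 h all 9 were called against a background of 61.6% (30.4% higher, 31.2% lower), and at 48 h 4 were called against 44.1% (23.4% higher, 20.7% lower). The 48 h count depends on the scaling: library size alone, which moves the median of all genes there by 0.16, called 7 members, 6 higher and 1 lower, and upper-quartile scaling called 5, 3 higher and 2 lower. With the GC trend removed 6 were called, 2 higher and 4 lower. At 8, 24 and 48 h the median log2 differences of the 9 genes were 0.95, 0.65 and -0.00049, and those of all genes tested were -0.10, -0.015 and 0.029. In bulk RNA, more of a transcript per cell and more of the cells that hold it cannot be told apart. CPM is moreover a share of the library, so a change in total RNA per cell would not show.

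**Figure D1:**
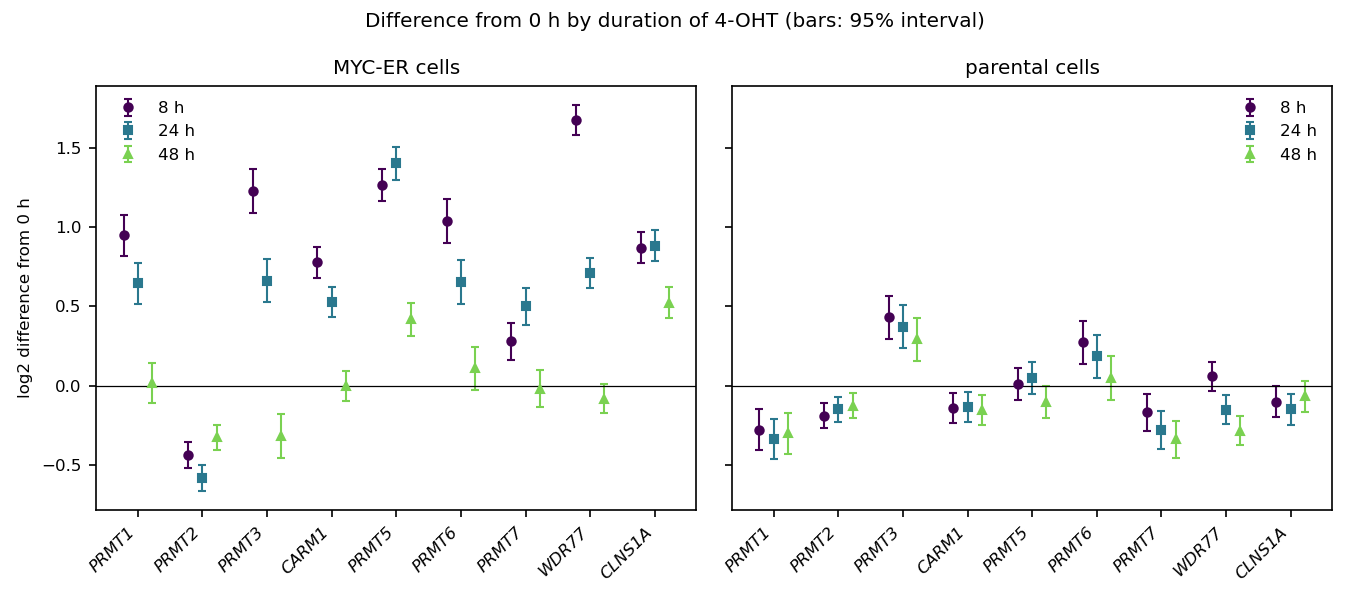
Log2 difference from 0 h for each gene after 8, 24 and 48 h of 4-OHT, in MYC-ER cells (left) and parental cells (right); points are edgeR estimates from 3 libraries per group and bars are 95% intervals. In MYC-ER cells 8 genes lie above 0 at 8 and 24 h and PRMT2 lies below it, with WDR77 highest at 1.68, whereas the parental differences lie between -0.34 and 0.43.

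PRMT5 (ENSG00000100462, chromosome 14, 22920511 to 22929585 in GRCh38, minus strand) is the main enzyme for symmetric dimethylarginine. Its 3 MYC-ER libraries stood at 88.4, 94.7 and 93.6 CPM at 0 h, 227, 216 and 223 at 8 h, 247, 245 and 240.4 at 24 h and 127, 125 and 118 at 48 h. The 4 groups do not overlap: all 24 h libraries were highest, then 8 h, 48 h and 0 h. After 8 h PRMT5 had risen by 1.27 on the log2 scale (SE 0.052, edgeR adjusted p = 3.64e-15) and after 24 h by 1.40 (SE 0.053, adjusted p = 7.64e-16). After 48 h 0.42 remained (SE 0.052, adjusted p = 8.19e-07). From 8 to 24 h PRMT5 rose by a further 0.14 (edgeR adjusted p = 0.0302); this call was lost without the filter on low counts (0.12) and when the trend with GC content was removed (0.049). It was also lost without 8 h replicate 2 or 3 or without 24 h replicate 1 or 2, with 0.11 to 0.14. In parental cells PRMT5 stood at 142, 129.9 and 148 CPM at 0 h, 143, 140.3 and 139.6 at 8 h, 139.8, 147 and 147 at 24 h and 123, 129 and 139 at 48 h. Each later group overlaps 0 h, while the 48 h libraries all lie below those of 8 and 24 h, and none of the 3 differences from 0 h was called (0.0098, 0.047 and -0.10, with 95% intervals of -0.091 to 0.11, -0.054 to 0.15 and -0.20 to -0.0010). That at 24 h was called with the GC trend removed (0.14), that at 48 h with upper-quartile scaling (-0.15) and without parental 0 h replicate 2 or parental 48 h replicate 3 (-0.15 and -0.15).

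WDR77 (ENSG00000116455, chromosome 1, 111439890 to 111449376, minus strand) is the WD-repeat partner that PRMT5 needs for full activity. Its MYC-ER libraries held 35.04, 34.3 and 35.4 CPM at 0 h, 112, 109 and 113 at 8 h, 56.1, 58.01 and 57.4 at 24 h and 33.9, 32.5 and 32.4 at 48 h. The 8 h libraries were 3.19-fold above 0 h, and the level then dropped at each step, so that the 48 h libraries all lay below the 0 h libraries. WDR77 rose by 1.68 (SE 0.049, edgeR adjusted p = 9.77e-18) at 8 h and stood 0.71 above 0 h at 24 h (adjusted p = 1.73e-11). At 48 h the difference of -0.083 was not called (adjusted p = 0.172, 95% interval -0.18 to 0.011), although it was called at -0.15 with the GC trend removed and turned to 0.079, uncalled, when scaled by library size alone. From 8 to 24 h it fell by 0.96 and from 24 to 48 h by 0.79 (edgeR adjusted p = 1.68e-13 and 5.77e-12). In parental cells WDR77 stood at 112, 100.00 and 114 CPM at 0 h, 116, 111 and 113 at 8 h, 96.2, 99.7 and 97.8 at 24 h and 85.2, 88.1 and 94.4 at 48 h. The parental level at 48 h was lower than at 0 h by 0.29 on the log2 scale (edgeR adjusted p = 7.91e-05), and the call was lost when only those 2 groups were fitted (-0.28).

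CLNS1A (ENSG00000074201, chromosome 11, 77514936 to 77637805, minus strand) binds Sm proteins and presents them to PRMT5. Its MYC-ER libraries held 71.2, 73.7 and 74.4 CPM at 0 h, 139, 128 and 134 at 8 h, 137, 133 and 135 at 24 h and 107, 104 and 104 at 48 h. The 8 h and 24 h libraries overlap and all lie above the 48 h libraries, which all lie above 0 h. The differences from 0 h after 8, 24 and 48 h were 0.87, 0.88 and 0.52 (edgeR adjusted p = 8.82e-13, 9.19e-13 and 1.54e-08). Between 8 and 24 h it was 0.010 (95% interval -0.086 to 0.11) and not called; scaled by library size alone it was called at 0.22. From 24 to 48 h CLNS1A fell by 0.36 (edgeR adjusted p = 2.18e-06). Parental libraries ran from 96.9 CPM (24 h) to 121 CPM (0 h).

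The 3 parts of the PRMT5 machinery thus followed different courses in the same libraries. The ratio of PRMT5 CPM to WDR77 CPM does not depend on library scaling. In MYC-ER cells it was 2.52, 2.76 and 2.65 at 0 h, 2.03, 1.97 and 1.98 at 8 h, 4.40, 4.22 and 4.19 at 24 h and 3.74, 3.85 and 3.63 at 48 h. It was lower at 8 h than at 0 h in every library (by 0.41 on the log2 scale) and higher at 24 h than at 8 h in every library (by 1.10). In parental cells the mean ratio was 1.29, 1.24, 1.48 and 1.46 at 0, 8, 24 and 48 h. The parental 24 h and 48 h libraries all lay above those of 0 h, by 0.20 and 0.18 on the log2 scale. For each of these MYC-ER comparisons an exact two-sided permutation test gave p = 0.1, the smallest that 3 against 3 libraries allows, so the design cannot pass 0.05 here. The ratio to CLNS1A moved the other way at 8 h in MYC-ER cells. Its MYC-ER means at 0, 8, 24 and 48 h were 1.26 ± 0.0216, 1.66 ± 0.0298, 1.81 ± 0.0343 and 1.17 ± 0.0368 (SD, n = 3). In parental cells the ratio to CLNS1A rose too, by less. The parental rises from 0 h were 0.11 at 8 h and 0.20 at 24 h on the log2 scale, against 0.40 and 0.52 in MYC-ER cells. In each of these comparisons the libraries did not overlap those of 0 h. At 48 h the parental libraries overlapped 0 h (-0.037). These ratios are not corrected for transcript length, so their changes can be read but not their size as a ratio of molecules. Over all 24 libraries log2 CPM of PRMT5 correlated more with CLNS1A (r = 0.92) than with WDR77 (r = 0.41), as a description over libraries that share groups.

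**Figure D2:**
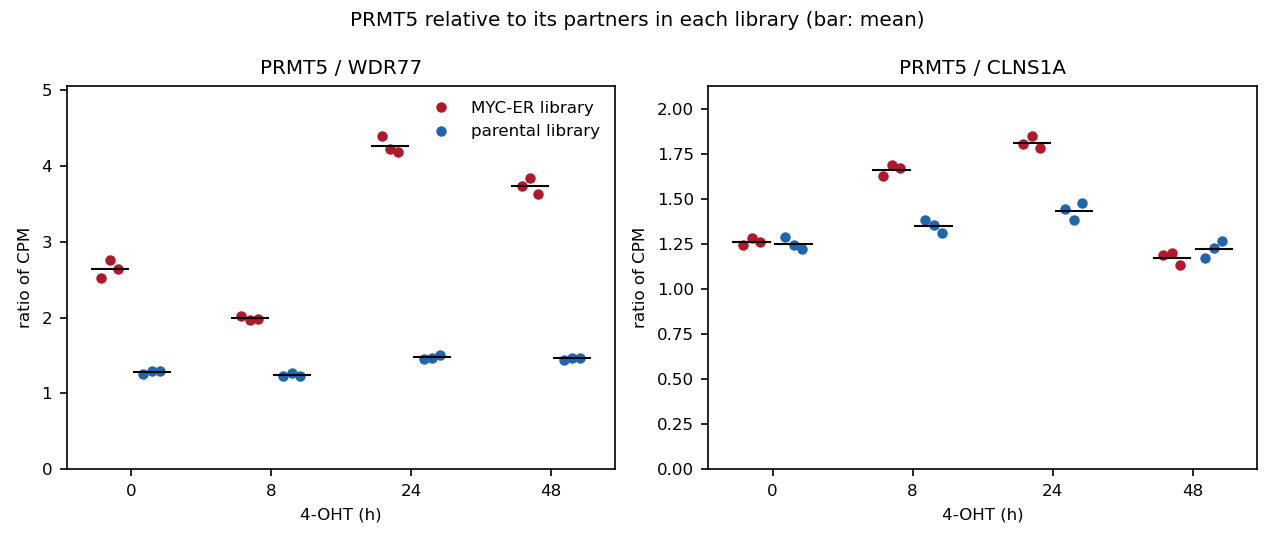
Ratio of PRMT5 CPM to WDR77 CPM (left) and to CLNS1A CPM (right) in each library against hours of 4-OHT, in MYC-ER (red) and parental (blue) cells; each point is 1 library and the bar is the mean of 3. The ratio to WDR77 in MYC-ER cells drops to 1.99 ± 0.0289 at 8 h and stands at 4.27 ± 0.113 at 24 h, and the parental libraries all lie below every MYC-ER library.

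PRMT1 (ENSG00000126457, chromosome 19, 49675786 to 49689029, plus strand) is known as the main type I enzyme of most cells. In MYC-ER cells it stood at 116, 125 and 119.6 CPM at 0 h, 237, 224 and 234 at 8 h, 188, 191 and 185 at 24 h and 123, 121 and 121 at 48 h. The 8 h libraries were highest and the 24 h libraries next, while those of 48 h fell within the range of 0 h. PRMT1 rose by 0.95 at 8 h (SE 0.066, edgeR adjusted p = 2.5e-11) and stood 0.65 above 0 h at 24 h (adjusted p = 1.72e-08). The difference of 0.017 at 48 h was not called (adjusted p = 0.869); scaled by library size alone it was called at 0.18, and with GC and length trends removed it was called at -0.14. In parental cells PRMT1 stood at 196, 168 and 217 CPM at 0 h, 158, 159 and 161 at 8 h, 152, 152 and 155 at 24 h and 143, 163 and 164 at 48 h. The 0 h libraries had the widest spread and the other groups were lower on average, by 0.28, 0.34 and 0.30 on the log2 scale (edgeR adjusted p = 0.00287, 0.000284 and 0.000857). Those 3 parental calls were lost with the GC trend removed (-0.12, -0.11 and -0.11).

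CARM1 (ENSG00000142453, chromosome 19, 10871513 to 10923070, plus strand) is a coactivator-associated enzyme that methylates histone H3 and splicing factors. It stood at 74.4, 76.01 and 73.7 CPM at 0 h, 132, 128 and 124 at 8 h, 111, 106 and 105 at 24 h and 75.6, 74.3 and 74.1 at 48 h in MYC-ER cells. The 8 h and 24 h libraries all lay above 0 h, and those of 48 h overlapped it. CARM1 rose by 0.78 at 8 h and stood 0.53 above 0 h at 24 h (edgeR adjusted p = 4.63e-12 and 3.73e-09), with -0.00049 at 48 h (95% interval -0.096 to 0.095). Library size alone gave a call of 0.16 at 48 h. Parental CARM1 differed from 0 h by -0.14, -0.13 and -0.15 at 8, 24 and 48 h (edgeR adjusted p = 0.0334, 0.0297 and 0.0146). These parental values turned positive with the GC trend removed (0.11, 0.22 and 0.15), and the later 2 were then called higher. All 3 calls were lost without parental 0 h replicate 1 (-0.11, -0.11 and -0.13), parental 0 h replicate 3 (-0.091, -0.078 and -0.085) or parental 8 h replicate 1 (-0.12, -0.11 and -0.11). Leaving out parental 8 h replicate 2, 24 h replicate 1 or 2, or 48 h replicate 1 each ended the call of its own time.

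PRMT3 (ENSG00000185238, chromosome 11, 20387530 to 20509294, plus strand) is a cytosolic enzyme whose known substrate is the ribosomal protein RPS2. Its MYC-ER libraries held 28.3, 32.2 and 28.9 CPM at 0 h, 70.3, 70.4 and 69.3 at 8 h, 49.3, 44.9 and 47.5 at 24 h and 23.3, 24.2 and 24.2 at 48 h. No 2 of these groups overlap, and 48 h was lowest. PRMT3 rose by 1.23 at 8 h (SE 0.071, edgeR adjusted p = 1.09e-12) and stood 0.66 above the start at 24 h (adjusted p = 3.45e-08). By 48 h it was below the start, at -0.32 (adjusted p = 0.000821). The 48 h call was lost when scaled by library size alone (-0.16). From 24 to 48 h PRMT3 fell by 0.98 (edgeR adjusted p = 1.17e-10). In parental cells it stood at 38.04, 47.4 and 36.7 CPM at 0 h, 55.3, 55.6 and 53.7 at 8 h, 50.7, 54.5 and 53.00 at 24 h and 49.04, 49.1 and 51.4 at 48 h. Each later parental group lay above all 0 h libraries and was called higher, by 0.43, 0.37 and 0.29 (edgeR adjusted p = 0.000124, 0.000211 and 0.00206). The parental 48 h call was lost with the GC trend removed (0.075), and the 8 h and 48 h calls when only those groups were fitted (0.43 and 0.30).

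PRMT6 (ENSG00000198890, chromosome 1, 107056679 to 107067636, plus strand) is a nuclear type I enzyme that methylates arginine on histone H3. In MYC-ER cells its CPM was 18.7, 18.2 and 18.6 at 0 h, 37.6, 37.8 and 38.8 at 8 h, 30.9, 28.5 and 28.04 at 24 h and 20.5, 20.02 and 19.4 at 48 h. All later libraries lay above those of 0 h. PRMT6 rose by 1.04 at 8 h and stood 0.65 above 0 h at 24 h (edgeR adjusted p = 1.68e-11 and 3.9e-08). At 48 h the difference of 0.11 was not called (adjusted p = 0.226), although it was called with library size alone (0.27), with upper-quartile scaling (0.15), when only the 2 groups were fitted (0.12) and without parental 0 h replicate 2 (0.11).

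PRMT7 (ENSG00000132600, chromosome 16, 68310974 to 68358563, plus strand) is the enzyme that leaves arginine with a single methyl group. Of the 9 members it changed least from 0 h at 8 and 24 h in MYC-ER cells. Its MYC-ER libraries held 28.9, 28.9 and 29.1 CPM at 0 h, 34.1, 36.1 and 35.3 at 8 h, 40.5, 40.9 and 41.7 at 24 h and 29.2, 28.4 and 28.2 at 48 h. The 24 h libraries were highest, those of 8 h next, and 48 h overlapped 0 h. PRMT7 rose by 0.28 at 8 h (edgeR adjusted p = 0.000315) and by a further 0.22 from 8 to 24 h (adjusted p = 0.00315), then fell by 0.52 to 48 h (adjusted p = 1.69e-07). Upper-quartile scaling, which moves the median of all genes by -0.14 in the 8 h comparison, gave 0.14 at 8 h, which was not called. At 24 h PRMT7 stood 0.50 above 0 h (adjusted p = 2.02e-07). The 48 h difference of -0.019 was not called (adjusted p = 0.836); it was called at 0.14 with library size alone and at -0.12 with the GC trend removed. The parental level at 48 h was -0.34 from 0 h (edgeR adjusted p = 0.000137), a call lost when only those groups were fitted (-0.33).

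PRMT2 (ENSG00000160310, chromosome 21, 46635167 to 46665124, plus strand), a type I enzyme with an SH3 domain and weak activity, was the member that fell. Its MYC-ER libraries held 115, 109 and 106 CPM at 0 h, 83.1, 77.99 and 82.4 at 8 h, 72.5, 74.1 and 73.5 at 24 h and 87.9, 87.3 and 88.00 at 48 h. Every 0 h library lay above all later ones, and 24 h was lowest. PRMT2 fell by 0.44 at 8 h, 0.58 at 24 h and 0.33 at 48 h against 0 h (edgeR adjusted p = 3.56e-09, 3.84e-11 and 9.48e-07), and it rose by 0.26 from 24 to 48 h (adjusted p = 1.41e-05). In parental cells it stood at 86.97, 81.3 and 86.3 CPM at 0 h, 74.3, 75.2 and 73.6 at 8 h, 73.5, 78.7 and 77.3 at 24 h and 78.1, 77.4 and 77.6 at 48 h. Across the 24 libraries its log2 CPM correlated negatively with each of the other 8 genes (r from -0.77 to -0.32), whereas PRMT1 with CARM1 and PRMT3 with PRMT6 each gave r = 0.95.

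**Figure D3:**
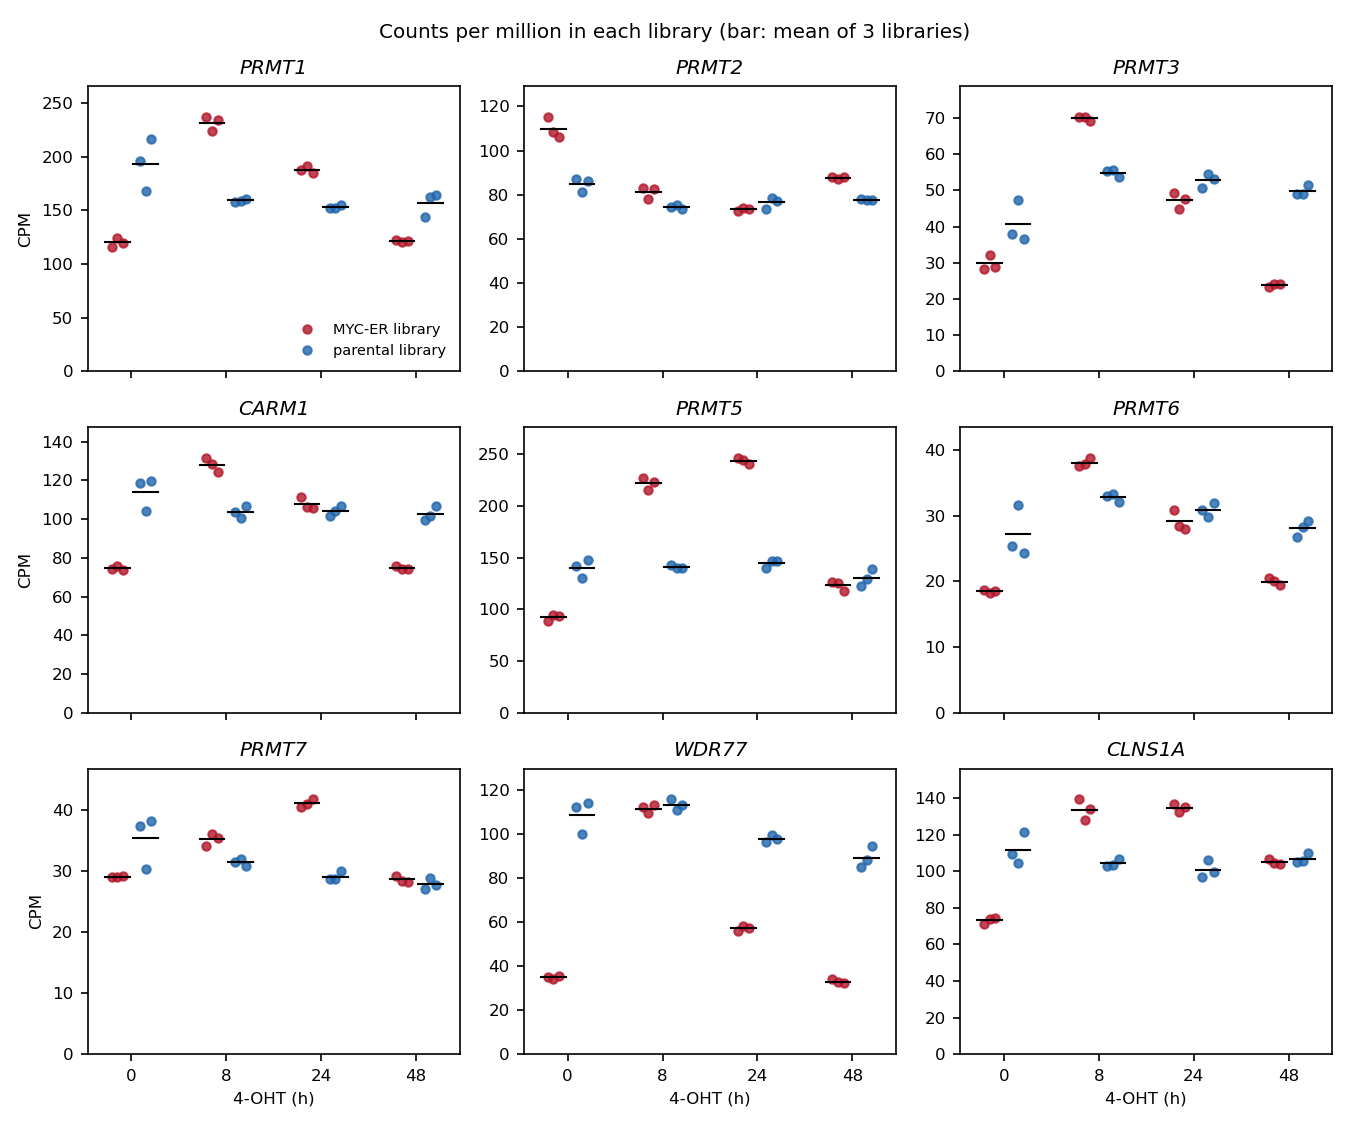
CPM of each gene against hours of 4-OHT in MYC-ER and parental cells; each point is 1 library (3 per group) and the bars mark the group means. In MYC-ER cells 8 genes are higher at 8 h than at 0 h and PRMT2 is lower, with WDR77 going from 34.9 ± 0.567 to 111 ± 1.92 CPM.

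Per kilobase of the longest coding transcript in GENCODE 29, which lets genes be compared, PRMT1 was the most abundant member in MYC-ER cells at 0 h, with 71.2 ± 2.60 CPM per kb (SD, n = 3). PRMT2 (38.2 ± 1.68) and PRMT5 (36.4 ± 1.34) followed within their spread of each other, and PRMT6 (7.08 ± 0.0902) and PRMT7 (6.84 ± 0.0267) were lowest. At 8 h PRMT1 stood at 138 ± 4.04, PRMT5 at 87.7 ± 2.23 and PRMT2 at 28.2 ± 0.965 CPM per kb. The true transcripts used may be shorter or longer than the longest one.

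Between consecutive times in MYC-ER cells, 8 of the 9 genes were called from 8 to 24 h (55.5% of all genes tested; 28.4% higher, 27.1% lower), 2 higher (PRMT5 and PRMT7) and 6 lower; CLNS1A was not called. From 24 to 48 h all 9 were called (53.7% of all genes tested; 28.2% higher, 25.5% lower), with 8 lower and PRMT2 higher. Scaled by library size alone, which moves the median of all genes by 0.21 in the 8 to 24 h comparison, 5 members were called there, 3 higher and 2 lower; upper-quartile scaling called 7, 2 higher and 5 lower. The 24 to 48 h falls of PRMT5 and WDR77 were 0.99 and 0.79 on the log2 scale (edgeR adjusted p = 7.32e-13 and 5.77e-12). The comparisons with 0 h share their 0 h libraries, and those of successive times share the middle group.

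Parental cells had the same 4-OHT without the fusion and are the background for its effect. At 8 h 6 of the 9 genes were called (31% of all genes tested; 15% higher, 16% lower), with PRMT3 and PRMT6 higher and PRMT1, PRMT2, CARM1 and PRMT7 lower. At 24 h 8 were called (42.9%; 21.2% higher, 21.7% lower), and WDR77 and CLNS1A were lower too. At 48 h 6 were called (40.5%; 20.4% higher, 20.1% lower), PRMT3 higher and PRMT1, PRMT2, CARM1, PRMT7 and WDR77 lower. Over the 9784 genes with at least 10 CPM on average, the parental changes followed GC content (Spearman's rho across genes of -0.64, -0.68 and -0.67 at 8, 24 and 48 h), while the MYC-ER changes did not to the same extent (0.015, -0.063 and 0.031); genes are not independent replicates. The coding transcripts of PRMT3 and CLNS1A have 41.7% and 40.3% GC, and that of CARM1 has 61.9%. With the GC trend removed, 3 members were called at 8 h (2 higher, 1 lower), 6 at 24 h (4 higher, 2 lower) and 4 at 48 h (1 higher, 3 lower), so the split at 24 h turned. Fitted on the parental groups of each comparison alone, 0, 2 and 0 members were called by edgeR at 8, 24 and 48 h, where 4, 3 and 4 had an unadjusted p under 0.05; DESeq2 on all libraries called 6, 8 and 6. Parental 0 h replicate 2 was the lowest library of its group for 7 members and the highest for PRMT3 and PRMT6; without it 7, 8 and 8 members were called. DESeq2 size factors in edgeR gave 4 calls at 8 h, 2 higher and 2 lower, and upper-quartile scaling gave 7 at 24 h, 1 higher and 6 lower. At 24 h the count was 5 without parental 0 h replicate 1, 4 without 0 h replicate 3 and 4 without 24 h replicate 1.

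Before 4-OHT the lines already differed. MYC-ER cells at 0 h had lower RNA than parental cells for 8 of the 9 genes and higher RNA for PRMT2. All 9 were called, where 64.3% of all genes tested were called, 31.6% higher and 32.7% lower. The median difference of the members was -0.60 on the log2 scale, and that of all genes was 0. WDR77 was 34.9 ± 0.567 CPM in MYC-ER and 109 ± 7.60 CPM in parental cells, a difference of -1.64 (SE 0.048, edgeR adjusted p = 1.55e-17). The differences were -0.69 for PRMT1, -0.45 for PRMT3, -0.61 for CARM1, -0.60 for PRMT5, -0.55 for PRMT6, -0.28 for PRMT7, -0.61 for CLNS1A and 0.37 for PRMT2. The PRMT7 call was lost with the GC trend removed (-0.091). The rise at 8 h in MYC-ER cells therefore started from a lower level than in parental cells, and the summed fibroblast markers were also highest in MYC-ER cells at 0 h, as given above; their part in the difference was not tested.

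After 8 h, MYC-ER cells held more RNA than parental cells for every member except WDR77, and these 8 differences were called. Of all genes tested, 48.6% were called between the lines at that time, 23.1% higher and 25.5% lower. For these 8 members the order was the reverse of that at 0 h, apart from PRMT2. PRMT2 was higher in MYC-ER cells at both times, by 0.37 at 0 h and 0.13 at 8 h on the log2 scale. PRMT5 was 0.66, PRMT1 0.54 and CLNS1A 0.36 above parental cells on the log2 scale (edgeR adjusted p = 7.58e-10, 4.95e-07 and 3.05e-06). WDR77, in contrast, reached the parental level: the difference was -0.024, with a 95% interval of -0.12 to 0.069. That value was called at -0.10 with library size alone and at 0.11 with GC and length trends removed. Scaled by library size alone 6 members were called at 8 h, 5 of them higher and WDR77 lower; with upper-quartile scaling 6 were called, all higher.

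At 24 h 5 were called (49.4% of all genes; 23.5% higher, 25.8% lower), with PRMT5 (0.76), PRMT7 (0.50), CLNS1A (0.42) and PRMT1 (0.30) higher in MYC-ER cells and WDR77 lower (-0.78; edgeR adjusted p = 1.09e-11). At 48 h 6 were called (56.7% of all genes; 27.3% higher, 29.4% lower), with PRMT2 higher (0.18) and WDR77 (-1.44), PRMT3 (-1.06), PRMT6 (-0.49), CARM1 (-0.46) and PRMT1 (-0.37) lower. PRMT5 at 48 h differed by -0.081 (95% interval -0.18 to 0.020, not called), which was called at -0.16 with the GC trend removed and turned to 0.062, uncalled, with library size alone. Library size alone, which moves the median of all genes by 0.14 here, called 8 members at 48 h, 3 higher and 5 lower, and upper-quartile scaling called 7, 2 higher and 5 lower. The PRMT2 call at 48 h was lost with the GC trend removed (0.070), and the 6 members then called were all lower.

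**Figure D4:**
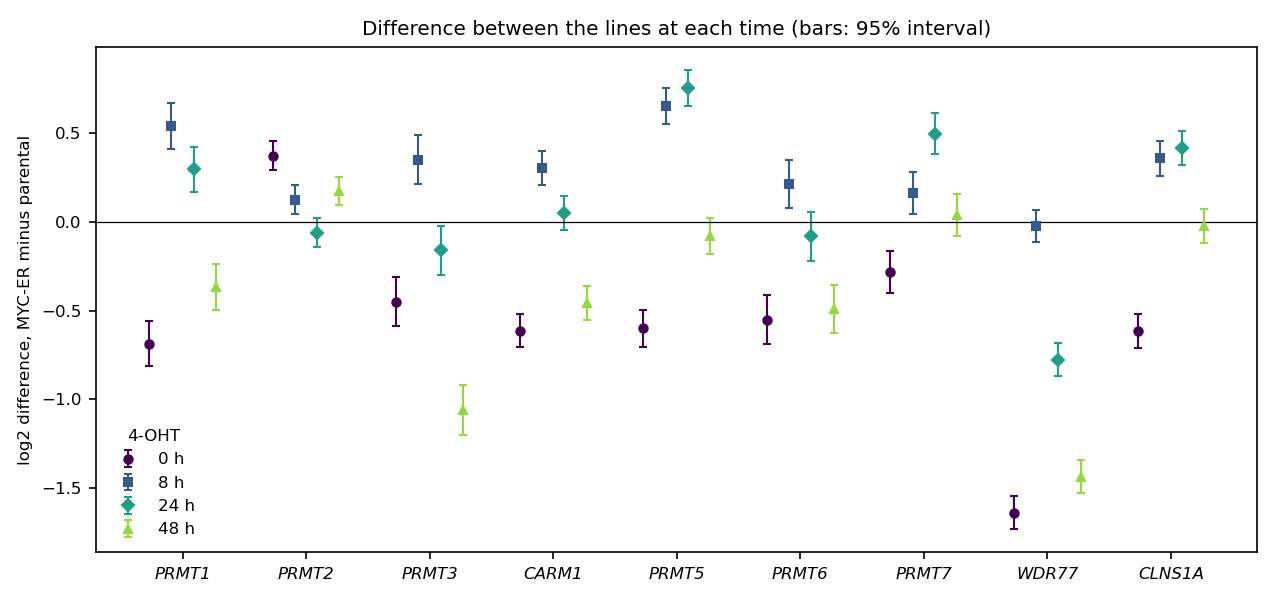
Log2 difference between the lines (MYC-ER minus parental) for each gene at 0, 8, 24 and 48 h of 4-OHT; points are edgeR estimates from 3 libraries per group and bars are 95% intervals. At 0 h 8 genes lie below 0 and PRMT2 above it, at 8 h 8 genes lie above 0 and WDR77 is at -0.024, and at 48 h WDR77 is back at -1.44.

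The test of the difference itself, the MYC-ER change from 0 h minus the parental change, called all 9 genes at 8 h (55.2% of all genes tested; 27.3% higher, 27.8% lower), all 9 at 24 h (54.5%; 27.7% and 26.8%) and 7 at 48 h (45%; 23.6% and 21.4%). At 8 h it was largest for WDR77 at 1.62 (SE 0.067, edgeR adjusted p = 1.5e-14), followed by PRMT5 at 1.26 and PRMT1 at 1.23, and it was negative for PRMT2 at -0.25. At 24 h it was largest for PRMT5 at 1.36 and CLNS1A at 1.03. At 48 h it was positive for PRMT5, CLNS1A, PRMT1, PRMT7 and WDR77 and negative for PRMT3 (-0.61) and PRMT2 (-0.20). With library size alone or upper-quartile scaling 7 were called at 48 h too, 6 positive and 1 negative. The split turned with the GC trend removed, where 5 were called (2 positive, 3 negative), and with GC and length trends removed, where 6 were (2 positive, 4 negative); CARM1 was then called at -0.22 and -0.18, from 0.15 and not called. The calls at 48 h for PRMT1, PRMT7 and WDR77 were lost with the GC trend removed (0.025, 0.012 and 0.14), and that for PRMT1 was -0.16 and called with GC and length trends removed. The PRMT2 call at 48 h was lost with library size alone (-0.097), and that of PRMT3 at 24 h when only the 4 groups were fitted (0.29) or without MYC-ER 0 h replicate 1 (0.25). The WDR77 call at 48 h was also lost without MYC-ER 48 h replicate 1, parental 0 h replicate 3 or parental 48 h replicate 1 (0.18, 0.14 and 0.17).

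Reads of overlapping genes could enter the counts. The sources used here do not say whether counting used strand, although the library kit keeps it. Strand would not separate genes that lie on the same strand. The exons of WDR77 share 12.5% of their bases with ATP5PB on the opposite strand, which was at 217 CPM at 0 h and 214 CPM at 8 h in MYC-ER cells. The same exons share 24% of their bases with AL390195.1 on the same strand, which was at no more than 0.29 CPM in any group. Those of CARM1 share 19.9% with YIPF2 on the opposite strand, which was at 28.99 CPM at 0 h and 58.8 CPM at 8 h, so CARM1 is to that extent uncertain. Those of PRMT5 share 27.1% with the antisense gene PRMT5-AS1, which was at no more than 0.25 CPM in any group. PRMT1 shares 7.63% with ADM5 on the same strand, which was at 6.56 CPM at 0 h and 2.51 CPM at 8 h.

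The rest of the pathway was described by 5 lists of genes. Their counts in MYC-ER cells are set beside the 32.2% of all genes called higher and 35.4% called lower at 8 h, and beside the shares of 24 and 48 h given above. The first holds other family members and adaptors, 9 genes of which 8 were tested. At 8 h 5 were called higher and 2 lower, with a median of 0.46; at 48 h 2 were higher and 4 lower. RIOK1, an adaptor that competes with CLNS1A for PRMT5, rose most, from 32.9 ± 1.62 to 57.1 ± 1.06 CPM (log2 0.80, edgeR adjusted p = 9.58e-13). COPRS, which directs PRMT5 to histones, rose by 0.78 (adjusted p = 2.34e-08). BTG1, a binding partner of PRMT1 with an antiproliferative role, fell from 603 ± 5.68 to 78.97 ± 2.30 CPM (fell by 2.93, edgeR adjusted p = 3.37e-21). PRMT8, a brain enzyme, had at most 2 counts in any library and was not tested.

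The list of S-adenosylmethionine supply and methylthioadenosine (MTA) removal holds 11 genes, of which 10 were tested; 4 were called higher and 3 lower at 8 h (median 0.043). MTRR, which reactivates methionine synthase, rose most (1.24, edgeR adjusted p = 3.8e-13), and AHCYL2, a relative of the enzyme that clears S-adenosylhomocysteine, fell most (by 0.89, adjusted p = 7.62e-09). MAT2A, which makes the methyl donor, stood at 322 ± 7.35 CPM at 0 h and 310.4 ± 17.9 CPM at 8 h, and the difference of -0.052 was not called (edgeR adjusted p = 0.428). MTAP, which breaks down MTA, an inhibitor of PRMT5, had 0 to 16 counts per library and was not tested. MTAP lies in a region next to CDKN2A that is known to be deleted in MCF-10A.

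Some of the Sm proteins are PRMT5 substrates, and the SMN complex loads the Sm proteins onto spliceosomal RNA after that methylation. Of these 22 genes 19 were called higher and 2 lower at 8 h (median 0.88), and 19 and 2 at 24 h (median 0.64). At 48 h 8 were higher and 7 lower (median 0.018). Before 4-OHT the MYC-ER line had 19 of them called lower than the parental line and 2 higher (median -0.70). Of all genes tested, 32.7% were called lower and 31.6% higher in that comparison. SNRPD1 rose most, from 25.1 ± 1.05 to 96.9 ± 2.95 CPM (1.95, edgeR adjusted p = 6.65e-17). SNRPB rose by 1.54 (adjusted p = 1.02e-13), and GEMIN8, a part of the SMN complex, fell by 1.41 (adjusted p = 4.14e-15). SMN1 and SMN2 are near-identical copies whose reads may be shared between them.

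The list of arginine-glycine-rich substrates holds 23 RNA-binding and nuclear proteins that carry methylarginine, and all were tested. At 8 h 19 were called higher and 4 lower (median 0.76), at 24 h 20 and 2 (median 0.64), and at 48 h 16 and 3 (median 0.22). GAR1, a protein of the snoRNPs that guide RNA modification, rose most (1.77, edgeR adjusted p = 4.54e-16). FBL, the nucleolar RNA methyltransferase, rose by 1.17, and NCL, the nucleolar protein nucleolin, by 1.55 (adjusted p = 4.48e-10 and 2.61e-14). CIRBP, a cold-inducible RNA-binding protein, fell most, by 0.90 (adjusted p = 3.4e-13).

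The list of proteins that read methylarginine or break it down holds 11 genes, of which 10 were tested; 6 were called higher and 3 lower at 8 h (median 0.81). PADI1, an enzyme that turns arginine to citrulline, had no counts in the 3 MYC-ER libraries at 0 h and averaged 0.0987 CPM at 8 h, at least 5.70-fold higher against a floor of 3 counts per library. Both levels are very low. PADI2, an enzyme of the same kind, had the lowest value, with 0.374 ± 0.135 CPM at 0 h and 0.178 ± 0.0769 CPM at 8 h (-1.07, edgeR adjusted p = 0.0183). At 48 h 6 were called higher and 1 lower, with a median of 0.78, or 0.43 with PADI1 at its bound. AGXT2 had at most 2 counts in any library and was not tested.

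**Figure D5:**
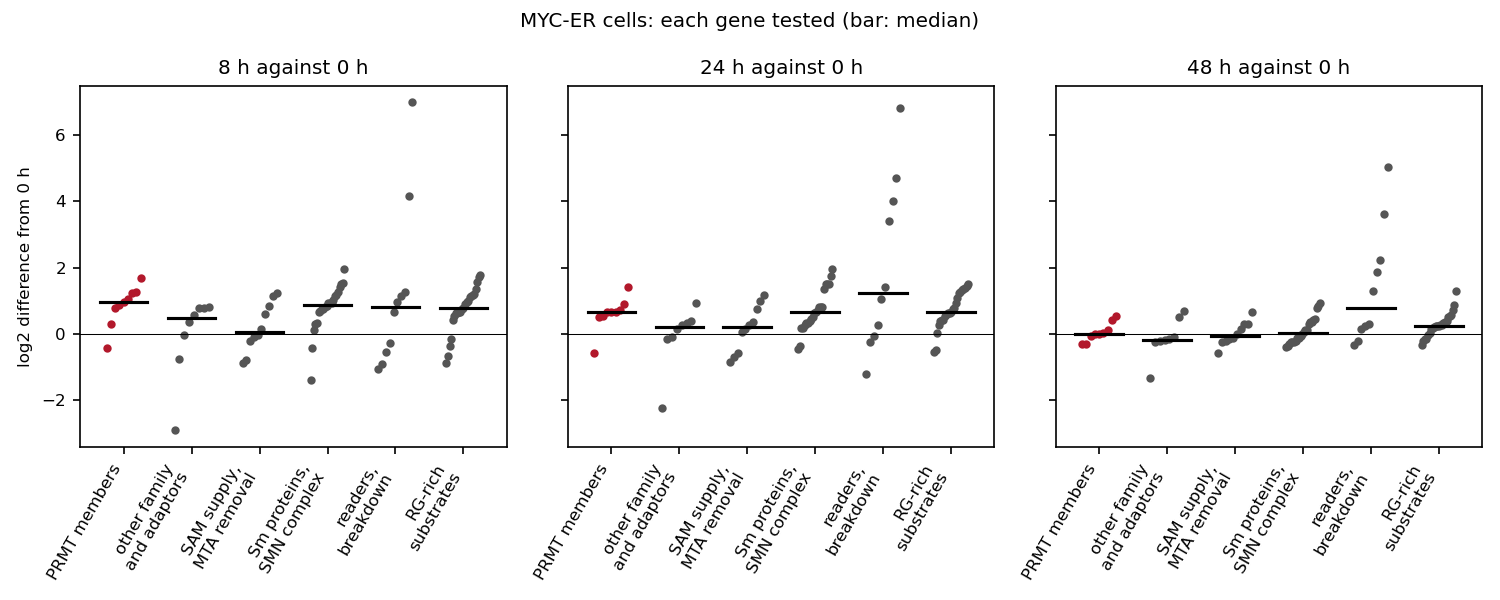
Log2 difference from 0 h in MYC-ER cells at 8, 24 and 48 h for the genes of the 5 lists and for the 9 members; each point is 1 tested gene and the bar is the median of the list. Sm and SMN genes and arginine-glycine-rich substrates have medians of 0.88 and 0.76 at 8 h and of 0.018 and 0.22 at 48 h.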

How the data were processed

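Poly(A)-selected, strand-specific RNA libraries were sequenced as 150-base read pairs, per the labels. The authors deposited 1 table of whole-number counts per gene, not normalised. The submitters' processing notes name Trimmomatic 0.39, STAR, StringTie 2.1.3b and GRCh38 without their roles; the counting mode, its use of strand and the annotation release are not given in the sources used here. A count derived from coverage would be an estimate, and sampling limits approximate.

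Groups came from the sample titles. Genes passing edgeR's filterByExpr (22158, of which 22001 have a symbol) entered 1 fit of all 24 libraries in edgeR 4.0.16 (R 4.3.3), with TMM scaling and a mean for each of the 8 groups. Contrasts used the two-sided quasi-likelihood F test with Benjamini-Hochberg adjustment over all genes and a threshold of 0.05. A standard error is the log2 difference divided by the square root of F. CPM uses library totals scaled by TMM; a prior count of 2 was added for log2 CPM. The scripts were tested on simulated counts. The file's identifiers were matched to symbols without their versions (60340 of 60668), and positions, GC content and lengths came from GENCODE 29 on GRCh38; some gene versions differ from those of the file.

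The members, lists and tests were chosen with earlier results of these data known. Named genes are every member, the highest and lowest tested gene of each list at 8 h in MYC-ER cells, MYC and 8 genes chosen for their known role (MAT2A, MTAP, COPRS, RIOK1, FBL, NCL, SNRPD1 and SNRPB); the 3 genes most like each member were also taken, some of which are not reported here. The markers of other cell types were fixed with the lists. Alternatives were DESeq2 1.42.0, other scalings and filters, only the groups compared, GC and length trends removed by lowess (span 0.3), the replicate number as a block, and leaving out each library. A lane held 3 libraries, and which shared a lane is not given in the sources used here, so lane and group cannot be told apart. Limits and floors of 3 counts cover counting error only, as PCR copies carry no molecular tag.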

Additional observations from a re-analysis of the deposited data

Results flagged for a closer look

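The MYC-ER and parental lines responded differently to 4-OHT in 25 of the 27 tests of members. The test was the line by time interaction (the MYC-ER change from 0 h minus the parental change, log2, edgeR with Benjamini-Hochberg adjustment). It called 55.2%, 54.5% and 45% of all genes tested at 8, 24 and 48 h. At 8 h all 9 members differed, with 1.23 for PRMT1, -0.25 for PRMT2, 0.80 for PRMT3, 0.92 for CARM1, 1.26 for PRMT5, 0.77 for PRMT6, 0.45 for PRMT7, 1.62 for WDR77 and 0.97 for CLNS1A. Their adjusted p ran from 1.5e-14 (WDR77) to 0.000928 (PRMT2). At 24 h all 9 differed again, with 0.98 for PRMT1, -0.43 for PRMT2, 0.29 for PRMT3, 0.66 for CARM1, 1.36 for PRMT5, 0.47 for PRMT6, 0.78 for PRMT7, 0.86 for WDR77 and 1.03 for CLNS1A. At 48 h 7 differed, with 0.32 for PRMT1, -0.20 for PRMT2, -0.61 for PRMT3, 0.52 for PRMT5, 0.32 for PRMT7, 0.20 for WDR77 and 0.59 for CLNS1A. CARM1 and PRMT6 were not called at 48 h. The 48 h calls for PRMT1, PRMT7 and WDR77 were lost with the GC trend removed. With only the groups compared, 4 members were called at 48 h. PRMT3 was the member whose interaction changed sign, positive at 8 and 24 h and negative at 48 h.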

How the results depend on the processing

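Of 135 member differences (9 genes in 15 comparisons), 112 were called. Over the same comparisons 31% to 67.6% of all genes tested were called. No call was lost or turned with the replicate number as a block, with at least 10 counts in every library, or with DESeq2's Wald test. Calls were lost with DESeq2 size factors (2), no filter on low counts (4), upper-quartile scaling (6), library size alone (11 lost, 1 turned), the GC trend removed (12 lost, 6 turned), GC and length trends removed (8 lost, 8 turned) and only the groups compared (22). The replicate numbers do not pair the samples: same-numbered libraries correlated at -0.078 to 0.094 in their deviations over every pair of groups (-0.034 to 0.052 in the 12 pairs that a comparison uses), and in those 12 pairs 29 of 72 samples correlated best with their own number. The block changed no call among the members. Library size alone also moved the split over all genes: 7212 of 9769 called were higher in MYC-ER cells at 48 h (from 5179 of 9772), 8595 of 12673 from 8 to 24 h (from 6300 of 12296), and 7537 of 12595 between the lines at 48 h (from 6057 of 12567).

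Counts of members called moved as follows. With library size alone 7 were called in MYC-ER at 48 h (from 4) and 5 from 8 to 24 h (from 8). In parental cells at 8 h 3 were called (from 6) with the GC trend removed, with GC and length removed, and with the replicate block and GC together. With only the groups compared the parental counts were 0, 2 and 0, and 4 interactions were called at 48 h (from 7). Library size alone gave 3 genes (from 6) for the other family members and adaptors at 48 h. A minimum of 10 counts in every library gave 4 (from 7) for readers and breakdown at 48 h, and 5 (from 8) between the lines at 0 h; genes at 0 in a group are then not tested.

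Directions that turned, on the log2 scale, were mostly of values close to 0. CARM1 at 48 h in MYC-ER cells was 0.0018 with DESeq2 size factors and with its Wald test, 0.16 with library size alone, 0.042 with upper-quartile scaling, 0.024 with the 10-count minimum and 0.0080 with only the groups compared. PRMT7 at 48 h was 0.14, 0.023 and 0.0058 with library size alone, upper-quartile scaling and the 10-count minimum, and WDR77 at 48 h was 0.079 with library size alone. PRMT1 at 48 h was -0.086 with the GC trend removed, with or without the replicate block, and -0.14 with length too. CLNS1A from 8 to 24 h was -0.0026 without a filter, -0.10 with the GC trend removed (also with the block) and -0.047 with length too. WDR77 between the lines at 8 h was 0.0061 with DESeq2 size factors and Wald test, 0.088 with GC (also with the block) and 0.11 with length too. PRMT5 between the lines at 48 h was 0.062 with library size alone and 0.061 with upper-quartile scaling. Parental PRMT5 was -0.031 and -0.033 at 8 and 24 h with upper-quartile scaling, and 0.033 at 48 h with GC and length removed. Among called values, parental CARM1 was 0.11, 0.22 and 0.15 at 8, 24 and 48 h with GC removed (also with the block) and 0.10, 0.20 and 0.14 with length too. Parental PRMT2 was 0.045 and 0.038 at 24 and 48 h with GC removed (also with the block) and 0.058 and 0.067 with length too, parental PRMT7 at 8 h was 0.00062 with GC removed (0.00067 with the block), and PRMT2 from 8 to 24 h was 0.061 with library size alone. Parental PRMT1 was 0.013 and 0.021 at 24 and 48 h, and its interaction at 48 h -0.16, with GC and length removed. Of values not called in the main analysis, CLNS1A between the lines at 48 h turned to 0.12 and was called with library size alone, and the CARM1 interaction at 48 h turned to -0.22 and was called with GC removed; PRMT2 and PRMT6 between the lines at 24 h, PRMT7 between the lines at 48 h and the PRMT6 interaction at 48 h also turned in at least 1 setting, uncalled there. The cause was not tested.

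Leaving out each library in turn gave 9 members called after 8 and 24 h in MYC-ER cells, 4 to 5 after 48 h, 7 to 8 from 8 to 24 h and 9 from 24 to 48 h. The parental counts were 4 to 7, 4 to 8 and 4 to 8 at 8, 24 and 48 h. Between the lines they were 9, 6 to 8, 5 to 6 and 6 at 0, 8, 24 and 48 h, and for the interaction 9, 8 to 9 and 6 to 8. Without 1 library, the log2 ratio of PRMT5 to WDR77 changed by -0.44 to -0.38 from 0 to 8 h and by 1.08 to 1.11 from 8 to 24 h. Single libraries turned the direction of these uncalled values: CARM1 (-0.012 to 0.011) and PRMT1 (-0.0097 to 0.044) at 48 h in MYC-ER cells, CLNS1A from 8 to 24 h (-0.022 to 0.039), parental PRMT5 at 8 h (-0.042 to 0.066) and 24 h (-0.0044 to 0.11), parental CLNS1A at 48 h (-0.11 to 0.026), WDR77 between the lines at 8 h (-0.038 to 0.0095) and the PRMT6 interaction at 48 h (-0.067 to 0.11).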

Other observations

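Genes among those whose log2 CPM followed each member most closely over the 24 libraries were looked up among 9776 genes with a symbol and at least 10 CPM on average. The correlations describe these libraries, which share groups, and carry no test. For PRMT5 they were PSMG1 (r = 0.985), HACD3 (0.981) and CUTC (0.976), and for CLNS1A ENG (0.971), SORD2P (0.971) and NLE1 (0.968). WDR77 went with other genes: TRPM2 (0.991), C11orf24 (0.991) and TNFRSF12A (0.990). PRMT1 was closest to CTU2 (0.981), NAA10 (0.978) and EXOSC7 (0.977), and among the genes closest to CARM1 were RUVBL1 (0.986) and NCLN (0.985). PRMT3 was closest to NAA50 (0.992), ERGIC2 (0.989) and DDX21 (0.985), PRMT6 to NCBP1 (0.979), GNPNAT1 (0.975) and EIF4E (0.974), and among the genes closest to PRMT7 were MRPS2 (0.957) and MRPL55 (0.951). Among those closest to PRMT2 were DNAJC4 (0.974) and CD36 (0.959). SORD2P is a pseudogene whose reads may be shared with its parent gene.

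The ratio of PRMT5 CPM to PRMT1 CPM, the main symmetric against the main asymmetric enzyme, was 0.762, 0.760 and 0.783 at 0 h, 0.956, 0.963 and 0.954 at 8 h, 1.31, 1.28 and 1.30 at 24 h and 1.03, 1.04 and 0.969 at 48 h in MYC-ER cells. It was highest at 24 h, and the 24 h libraries overlap no other group. The parental means were 0.728 ± 0.0453, 0.884 ± 0.0195, 0.945 ± 0.0229 and 0.832 ± 0.0337 (SD, n = 3). The ratio is not corrected for transcript length.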
